A study of Mus musculus with 2 samples.

Results

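The keratin genes encode the intermediate filament proteins of epithelial cells, and 53 of them were measured in whole stomachs of mouse embryos. They are the protein-coding genes of the GENCODE M21 annotation whose symbol is Krt followed by a number and at most 1 letter. The 53 were taken from the 43346 genes of the quantification tables, so a keratin gene absent from those tables is not counted. They make up 53 of 21474 protein-coding genes there. Type I chains account for 27 of them and type II chains for 25, and Krt222, a keratin-like gene, stands apart. By the epithelium in which the family is best known, 6 are simple, 21 are stratified and 25 belong to hair, nail or root sheath.

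A keratin filament is built from pairs of chains, each pair joining an acidic type I chain and a basic type II chain, so a cell that makes keratin filaments makes at least 1 chain of each type. Cells of simple epithelia, which line glands, ducts and gut, typically pair Krt8 or Krt7 with Krt18, Krt19 or Krt20. In stratified epithelia the basal cells typically pair Krt5 with Krt14 or Krt15, and cells that leave the basal layer switch to Krt4 with Krt13 in the moist lining of mouth and oesophagus or to Krt1 with Krt10 in skin. The mouse stomach holds both kinds of lining, a stratified squamous forestomach and a simple columnar glandular part.

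The samples form 1 group, whole stomach of B6NCrl embryos at embryonic day 15.5 with no treatment and no allele named, and 2 biological replicates. Replicate 1 was a pool of 78 embryos and replicate 2 a pool of 62, both of mixed sex, so that no value belongs to 1 animal. Total RNA above 200 nucleotides was sequenced from 10 ng of input with ERCC spike-ins. Expected counts on genes came to 43209506 in replicate 1 and 44257493 in replicate 2. The labels give no second condition, so the design allows a description of levels and a comparison of both libraries, given throughout as replicate 1 over replicate 2. The unit TPM gives a transcript's share of all transcripts after scaling by length and library, and was used to compare genes, and detection required at least 1 TPM in replicate 1 and in replicate 2.

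Markers of both kinds of lining were present. Of the 12 squamous epithelium markers 12 were detected, and they summed to 936.74 and 342.5 TPM in replicates 1 and 2, and of the 10 glandular epithelium markers 9 were detected, at 1230.82 and 1231.74 TPM. The largest part of the glandular sum was Epcam, at 333.33 and 358.68 TPM, and Vil1 is also in the intestine list. The glandular sum therefore need not come from the glandular lining alone. Markers of neighbouring organs were present too: all 8 liver markers were detected and summed to 1907.94 TPM in replicate 1 against 952.81 TPM in replicate 2, and all 8 exocrine pancreas markers were detected and summed to 7526.02 and 10133.6 TPM. Krt8, Krt18 and Krt19 are also made by duct cells of liver and pancreas and by intestinal epithelium. The part of such cells in the keratin levels below was not tested, and in a tissue made of many cell types fewer cells of a type and less RNA per cell cannot be told apart.

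Promoter windows of 300 bases, 250 before and 50 after an annotated start, were taken from RefSeq (GRCm38.p6), where 36 of the 53 keratins matched with 37 windows, Krt13 having 2. The windows below belong to detected keratins and are shown because a TATA motif lay 20 to 40 bases before the start in the first 4 and in neither of the last 2. Of all 11 windows of detected keratins 5 held such a motif there, counted from the RefSeq start. Each sequence runs 5′ to 3′ along the gene, and capitals mark matches of the motifs searched on either strand. The TATA box motif was searched as TATAAA. A related motif was searched as ATAAAAG, which can overlap the TATA box motif by 5 letters. The GC box was searched as GGGCGG, the CCAAT box by the letters of its name, the AP-1 site as TGANTCA and the AP-2 site as GCCNNNGGC.
Krt13, chr11:100121517-100121816, minus strand: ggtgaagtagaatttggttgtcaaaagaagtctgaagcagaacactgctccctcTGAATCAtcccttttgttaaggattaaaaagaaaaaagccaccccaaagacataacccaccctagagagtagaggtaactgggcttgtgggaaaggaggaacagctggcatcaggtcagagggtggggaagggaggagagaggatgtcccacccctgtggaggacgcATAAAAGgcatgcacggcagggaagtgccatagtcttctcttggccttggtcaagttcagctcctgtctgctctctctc
Krt5, chr15:101712856-101713155, minus strand: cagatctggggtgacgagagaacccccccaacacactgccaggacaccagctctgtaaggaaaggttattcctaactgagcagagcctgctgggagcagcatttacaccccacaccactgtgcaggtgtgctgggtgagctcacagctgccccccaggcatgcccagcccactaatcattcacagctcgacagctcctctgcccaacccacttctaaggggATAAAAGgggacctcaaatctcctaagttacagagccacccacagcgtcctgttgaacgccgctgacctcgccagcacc
Krt10, chr11:99389315-99389614, minus strand: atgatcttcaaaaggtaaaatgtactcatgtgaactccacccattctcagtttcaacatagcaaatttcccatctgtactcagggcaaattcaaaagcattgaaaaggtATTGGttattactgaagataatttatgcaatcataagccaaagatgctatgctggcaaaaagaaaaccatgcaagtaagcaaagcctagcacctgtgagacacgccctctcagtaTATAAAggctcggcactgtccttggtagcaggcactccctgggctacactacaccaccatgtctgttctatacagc
Krt20, chr11:99438104-99438403, minus strand: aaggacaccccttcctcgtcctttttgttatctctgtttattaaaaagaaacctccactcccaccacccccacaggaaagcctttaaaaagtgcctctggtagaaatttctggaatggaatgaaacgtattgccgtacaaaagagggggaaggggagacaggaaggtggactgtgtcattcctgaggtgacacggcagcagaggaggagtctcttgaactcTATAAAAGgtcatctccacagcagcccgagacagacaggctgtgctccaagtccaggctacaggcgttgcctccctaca
Krt18, chr15:102027966-102028265, plus strand: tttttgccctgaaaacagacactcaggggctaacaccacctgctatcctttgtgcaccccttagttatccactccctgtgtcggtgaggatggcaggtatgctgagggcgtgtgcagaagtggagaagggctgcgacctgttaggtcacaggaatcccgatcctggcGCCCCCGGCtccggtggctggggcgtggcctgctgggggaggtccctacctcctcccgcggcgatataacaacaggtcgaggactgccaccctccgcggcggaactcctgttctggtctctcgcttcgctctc
Krt8, chr15:102004293-102004592, minus strand: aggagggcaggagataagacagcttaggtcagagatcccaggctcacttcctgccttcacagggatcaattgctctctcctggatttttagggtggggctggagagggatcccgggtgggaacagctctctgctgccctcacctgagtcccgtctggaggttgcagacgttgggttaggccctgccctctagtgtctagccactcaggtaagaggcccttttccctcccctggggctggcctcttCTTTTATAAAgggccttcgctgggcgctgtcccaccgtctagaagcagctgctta

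In the Krt13 and Krt5 windows ATAAAAG began 29 bases before the start, in the Krt20 window TATAAA began 29 bases before it, and in the Krt10 window 26 bases before it. The second Krt13 window, at chr11:100120528-100120827, held neither TATA motif and had 2 AP-1 matches, 183 and 34 bases before its start. The Krt78 window also held ATAAAAG 29 bases before the start. The Krt8 window held TATAAA 1 base before the annotated start, and the Krt18 window held an AP-2 match 83 bases before the start and neither TATA motif. The RefSeq starts of the Krt8, Krt7, Krt14 and second Krt13 windows lie well inside the M21 bounds of these genes. For these windows the position of a motif, or its absence, depends on which annotated start is used. The 37 keratin windows leave out 17 keratins, among them the abundant Krt4, Krt15, Krt19 and Krt6a. TATAAA or ATAAAAG in the sense direction began 20 to 40 bases before the start in 19 of 37 keratin windows (51.4%). Of all 32851 windows in the table, 2.33% held such a match. On either strand and anywhere in the window, TATAAA was found in 19 of 37 keratin windows (51.4%, against 13.6% of all windows) and ATAAAAG in 13 (35.1%, against 5.42%). The GC box showed the opposite, with 2 of 37 keratin windows (5.41%, against 35.7%). In the 11 windows of detected keratins, TATAAA was found in 3, ATAAAAG in 6 and the GC box in 1. The other motifs had like shares in keratin and all windows, namely CCAAT in 15 of 37 (40.5%, against 37.4%), GCCNNNGGC in 7 (18.9%, against 16.6%) and TGANTCA in 2 (5.41%, against 7.81%). Windows of neighbouring genes can share ancestry, and ATAAAAG was added to the search after the windows had been seen, so these shares describe the windows and carry no test.

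Of the 53 keratins, 18 were detected (34.0%, against 64.5% of all protein-coding genes), and they held nearly all keratin RNA. All 6 simple and 12 of 21 stratified keratins were detected, and 0 of 25 hair, nail and root sheath keratins were. The levels of all 53 summed to 4873.73 TPM in replicate 1 and 3576.9 TPM in replicate 2, or 0.589% and 0.435% of the TPM of protein-coding genes. Simple keratins summed to 2166.17 TPM in replicate 1 and 2084.85 TPM in replicate 2. Stratified keratins summed to 2704.37 TPM in replicate 1 and 1489.65 TPM in replicate 2. The simple sum, which Krt8 and Krt19 dominate, was thus near level, although its members went in both directions, while the stratified sum was higher in replicate 1.

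**Figure D1:**
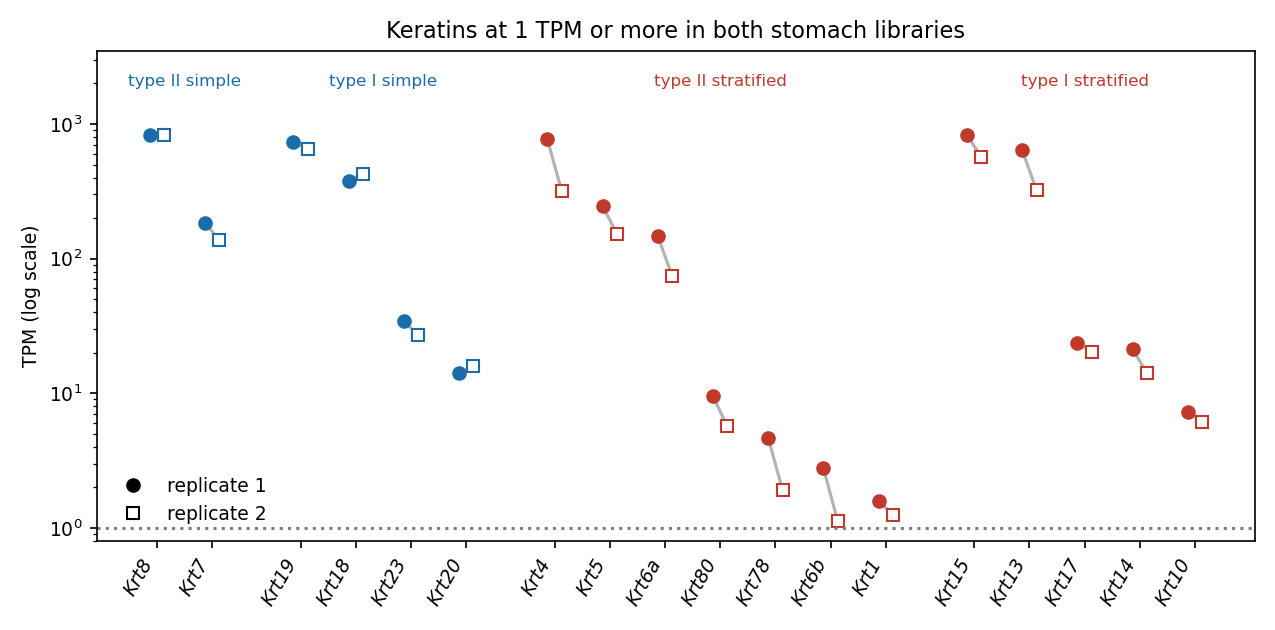
TPM of each detected keratin on a log axis, with 1 point for each library (filled circle, replicate 1; open square, replicate 2), grouped by simple and stratified keratins. Krt8 lies at 821.92 and 824.91 TPM, and the points of Krt4 and Krt13 lie further apart than those of Krt8, Krt18 and Krt19.

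Type II simple keratins were Krt8 and Krt7. Krt8 (ENSMUSG00000049382.9, chr15:101996698-102004482, mm10), the type II chain found in nearly all simple epithelia, had 821.92 TPM in replicate 1 and 824.91 TPM in replicate 2. With 43289 and 43638 counts its log2 ratio was 0.03 (95% interval 0.01 to 0.05), and no other detected keratin lay closer to 0. Krt8 ranked 121 among protein-coding genes in both libraries. Krt7 (ENSMUSG00000023039.12, chr15:101411043-101430313), a type II chain of ducts, bladder and mesothelium, had 184.49 TPM in replicate 1 and 136.85 TPM in replicate 2, with a log2 ratio of 0.49 (0.45 to 0.53). Together they came to 1006.41 and 961.76 TPM.

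Type I simple keratins were Krt18, Krt19, Krt20 and Krt23. Krt19 (ENSMUSG00000020911.10, chr11:100140810-100148665), the shortest type I chain and a marker of ducts and other simple epithelia, had 734.18 TPM in replicate 1 and 651.28 TPM in replicate 2. Krt18 (ENSMUSG00000023043.6, chr15:102028180-102032027), the usual partner of Krt8, had 377.17 and 428.79 TPM. Krt18 was the most abundant keratin whose scaled counts were higher in replicate 2, with a log2 ratio of -0.15 (-0.18 to -0.12), while Krt19 stood at 0.14 (0.11 to 0.16). Krt20, a type I chain of intestinal and gastric surface cells, had 14.05 TPM in replicate 1 and 16.05 TPM in replicate 2. Krt23, a type I chain, had 34.36 and 26.97 TPM. The 4 type I simple keratins summed to 1159.76 TPM in replicate 1 and 1123.09 TPM in replicate 2.

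The balance of chain types within the simple group was close to equal. The summed type II simple to type I simple ratio was 0.868 in replicate 1 and 0.856 in replicate 2, a log2 mean of -0.21 ± 0.01 (SD, n = 2). Which type led depended on the measure: the ratio was 1.28 and 1.21 with CPM, which is not corrected for length, and 1.06 and 0.981 with the transcript of most counts for each gene. Krt8 exceeded Krt18 by 2.18-fold in replicate 1 and 1.92-fold in replicate 2, and the type I sum exceeded the type II sum only with Krt19 counted. Over all keratins the type II to type I ratio was 0.816 in replicate 1 and 0.738 in replicate 2. RNA levels do not give the amounts of the chains themselves.

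Type II stratified keratins were led by Krt4, and 7 of 12 were detected. Krt4 (ENSMUSG00000059668.5, chr15:101918535-101924735), the suprabasal type II chain of moist internal linings, had 768.5 TPM in replicate 1 and 317.99 TPM in replicate 2. Krt5 (ENSMUSG00000061527.6, chr15:101707070-101712898), the basal type II chain, had 247.32 and 152.47 TPM. Krt6a (ENSMUSG00000058354.6, chr15:101689910-101694307), a chain of injured skin and of tongue and nail epithelium, had 147.7 and 74.28 TPM. All 3 were higher in replicate 1, and Krt4 ranked 140 among protein-coding genes in replicate 1 and 419 in replicate 2.

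The other detected type II stratified keratins were far lower. Krt80, described in human cells near desmosomal plaques, had 9.46 TPM in replicate 1 and 5.68 TPM in replicate 2. Krt78, another type II chain of stratified epithelia, had 4.67 and 1.91 TPM. Krt6b, a near copy of Krt6a, had 2.78 and 1.12 TPM. Krt1, the suprabasal chain of skin, was just inside the detection limit at 1.59 and 1.25 TPM, and Krt79 was just outside it at 0.94 and 0.81 TPM. The class summed to 1183.21 TPM in replicate 1 and 555.71 TPM in replicate 2, with Krt4 as its largest part in both.

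Type I stratified keratins were led by Krt15 and Krt13, and 5 of 9 were detected. Krt15 (ENSMUSG00000054146.8, chr11:100131758-100135928), a basal type I chain, had 829.28 TPM in replicate 1, the highest of all keratins there, and 568.8 TPM in replicate 2. Krt13 (ENSMUSG00000044041.4, chr11:100117327-100121566), the suprabasal partner of Krt4, had 639.2 and 323.92 TPM. Krt14, the basal type I chain of skin, had only 21.23 TPM in replicate 1 and 14.13 TPM in replicate 2. Krt17, a chain of skin appendages and injured epithelium, had 23.59 and 20.23 TPM, and Krt10, the partner of Krt1, had 7.21 and 6.16 TPM. Krt16, which pairs with Krt6 chains in injured skin, stayed below the detection limit with 0.56 and 0.65 TPM. The class summed to 1521.16 and 933.94 TPM.

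Among the basal chains, Krt15 and not Krt14 was the abundant type I partner available to Krt5. Krt15 exceeded Krt14 by 39.1-fold in replicate 1 and 40.3-fold in replicate 2, a log2 mean of 5.31 ± 0.03 (SD, n = 2). Krt5 exceeded Krt14 by 11.6-fold and 10.8-fold, and Krt5 was 0.298 times Krt15 in replicate 1 and 0.268 times Krt15 in replicate 2. Each of the 3 genes was higher in replicate 1. The ratios to Krt14 depended on its transcripts, since the Krt14 level includes a processed transcript: with the transcript of most counts for each gene, Krt15 exceeded Krt14 by 58.0-fold in replicate 1 and 83.4-fold in replicate 2, and Krt5 exceeded it by 18.0-fold and 22.6-fold, alternatives chosen after seeing the data.

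Among the suprabasal chains, the pair of internal linings far exceeded the pair of skin. Krt4 and Krt13 summed to 1407.7 TPM in replicate 1 and 641.91 TPM in replicate 2, while Krt1, Krt2 and Krt10 summed to 8.8 and 7.41 TPM. Krt4 was 1.20 times Krt13 in replicate 1 and 0.982 times Krt13 in replicate 2. Relative to the basal sum of Krt5, Krt14 and Krt15, which was 1097.83 TPM in replicate 1 and 735.4 TPM in replicate 2, the Krt4 and Krt13 sum was 1.28-fold in replicate 1 and 0.873-fold in replicate 2. The order of basal and internal suprabasal levels was thus not the same in both libraries, with a log2 mean of 0.08 ± 0.39 (SD, n = 2).

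The injury and appendage chains were present unequally. Krt6a, Krt6b, Krt16 and Krt17 summed to 174.63 TPM in replicate 1 and 96.28 TPM in replicate 2, with Krt6a as the largest part and Krt17 the next. Krt6a exceeded Krt17 by 6.26-fold in replicate 1 and 3.67-fold in replicate 2, and it exceeded Krt6b by 53.1-fold and 66.3-fold. Krt6a and Krt6b share sequence: 643 windows of 100 bases in M21 transcripts occur in both genes, and 42.9% of Krt6a and 30.6% of Krt6b windows occur in another gene. The reads of the pair were divided by the authors' quantification, and the posterior SD of the Krt6b count was 8.81 in replicate 1 and 5.31 in replicate 2 on counts of 182.54 and 73.72, so the Krt6b level is less certain than its count implies. Of the abundant keratins, Krt8 shares 17.1% of its windows with other annotated genes, mainly the pseudogene Krt8-ps, whereas Krt4, Krt7, Krt13, Krt15, Krt18 and Krt19 share 0. Exons of Krt5, Krt6a, Krt6b, Krt7, Krt8, Krt10 and Krt80 overlap annotated genes on the opposite strand, and without a stated strand setting reads of both strands cannot be told apart there; for Krt10 the overlapping Gm11940 had 19 counts in replicate 1 and 15 in replicate 2.

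In order of mean level the keratins ran Krt8 (823 ± 2.11 TPM), Krt15 (699 ± 184 TPM), Krt19 (693 ± 58.6 TPM), Krt4 (543 ± 319 TPM), Krt13 (482 ± 223 TPM), Krt18 (403 ± 36.5 TPM), Krt5 (200 ± 67.1 TPM), Krt7 (161 ± 33.7 TPM) and Krt6a (111 ± 51.9 TPM; SD, n = 2 each). These gene levels sum all transcripts, and the places of Krt19 and Krt7 depend on short ones. The protein-coding Krt19-201 alone had 428.6 TPM in replicate 1 and 432.59 TPM in replicate 2, below the mean levels of Krt4 and Krt13. By library, Krt19-201 lay below Krt4 (768.5 TPM) and Krt13 (639.2 TPM) in replicate 1 only. In replicate 2 it lay above both (317.99 and 323.92 TPM). Krt7-201 alone had 87.67 and 62.33 TPM, below Krt6a in both libraries. Within a library the order of gene levels was not the same throughout. Krt15 exceeded Krt8 and Krt19 in replicate 1 and lay below both in replicate 2, and Krt4 likewise exceeded Krt19 and Krt13, and Krt13 exceeded Krt18, in replicate 1 and not in replicate 2. Krt18, Krt5, Krt7 and Krt6a kept their order in both libraries. Only 8 keratins were above 100 TPM in both libraries.

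Hair, nail and root sheath keratins were near the detection floor. The 25 genes summed to 2.94 TPM in replicate 1 and 2.26 TPM in replicate 2. Krt34, a type I hair keratin, had the most counts of its class, 34.74 in replicate 1 and 15.69 in replicate 2 (0.75 and 0.34 TPM), and 17.6% of its windows are shared with its neighbours Krt33a, Krt31, Krt33b and Krt35. Krt75, a type II chain of the companion layer of hair, had 17 and 28 counts (0.17 and 0.29 TPM). Krt35, a type I hair keratin, had 13 counts in replicate 1 and 1 count in replicate 2. Krt222 had 20 and 10 counts (0.25 and 0.14 TPM). Over the whole family 7 genes had 0 counts in both libraries, namely Krt2, Krt9, Krt40, Krt42, Krt71, Krt73 and Krt82, and a count of 0 allows up to 3 counts, or 0.0385 to 0.0883 TPM for these genes. The 56 keratin-associated protein genes, which encode the matrix between hair keratins, had 0 detected members, 47 of them with 0 counts in both libraries and the rest with at most 5 counts in a library.

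**Figure D2:**
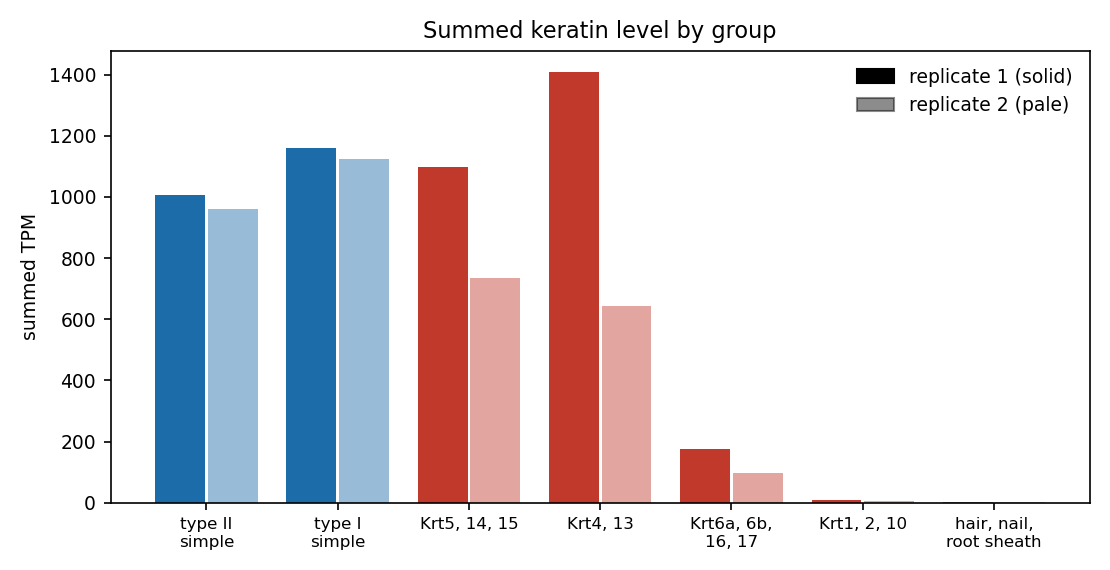
Bars give the summed TPM of 7 groups of keratins, with replicate 1 (solid) left of replicate 2 (pale). The type I and type II simple sums are nearly level between the libraries, while Krt4 and Krt13 sum to 1407.7 TPM in replicate 1 and 641.91 TPM in replicate 2.

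The genes lie in 2 clusters, in which some abundant keratins are neighbours and others stand among genes below 1 TPM. The chromosome 11 cluster holds 27 genes over 1037 kb, of which 8 were detected, and the chromosome 15 cluster holds 26 genes over 684.6 kb, of which 10 were detected. All type I genes but Krt18 lie on chromosome 11. Krt13, Krt15 and Krt19 follow each other with 10192 and 4882 bases between them, and the 7 hair keratin genes that run up to Krt13 from Krt33a all stayed below 1 TPM in both libraries. On chromosome 15, Krt8 and Krt18 are separated by 23698 bases, and Krt6b, Krt6a and Krt5 by 9623 and 12763 bases. Krt87, which lies 725 bases from the abundant Krt7, had 0.18 TPM in replicate 1 and 0.32 TPM in replicate 2. Krt4 likewise lies 4597 bases from Krt79, which was below 1 TPM. High and undetected genes thus alternate over short distances, and simple and stratified keratins are interleaved in both clusters.

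**Figure D3:**
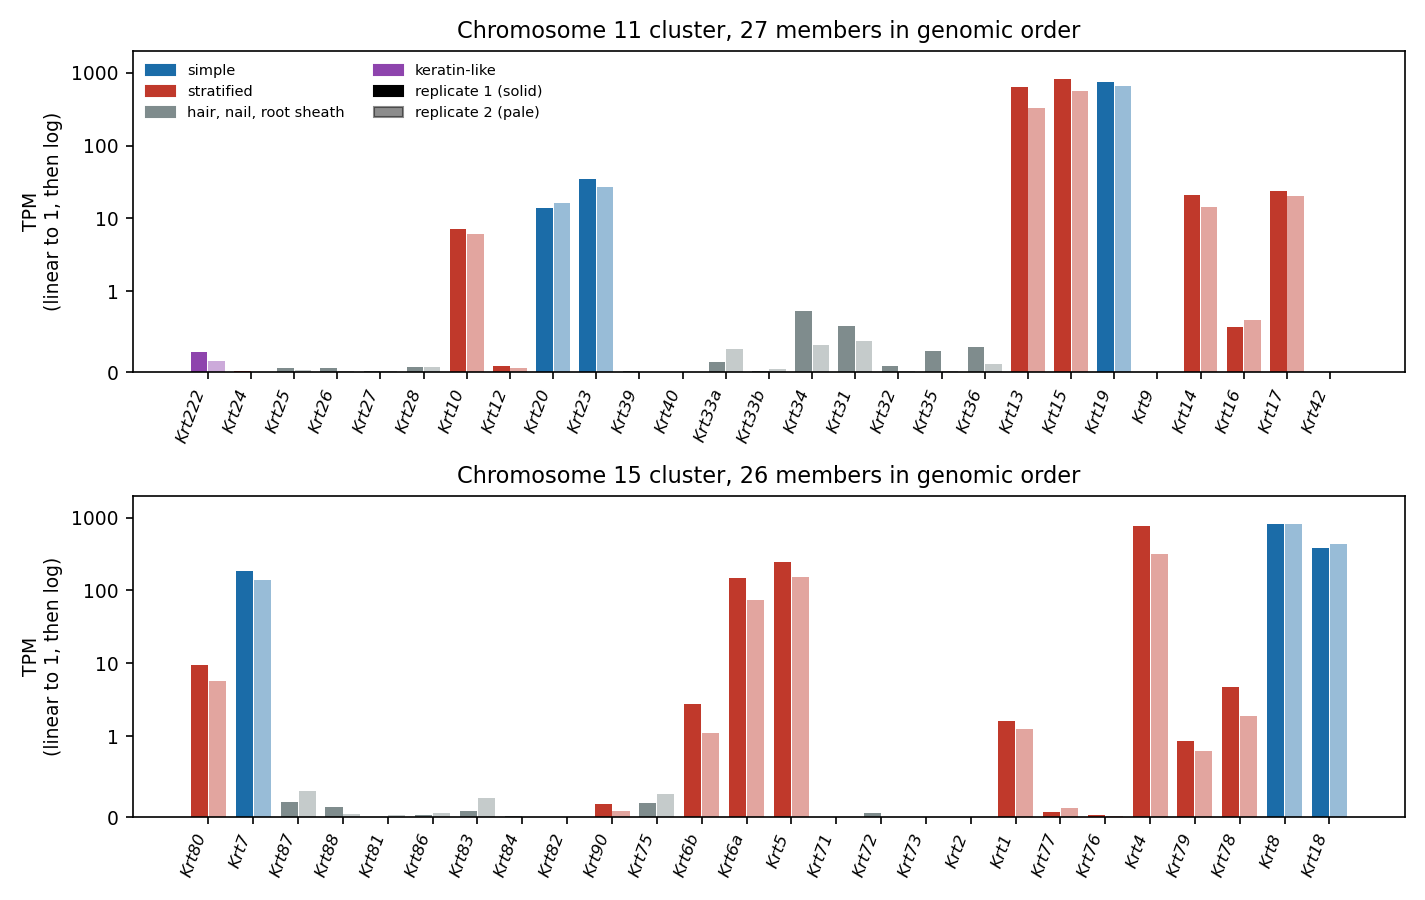
TPM of the 53 keratins in their order along chromosomes 11 and 15, as bars for replicate 1 (solid) and replicate 2 (pale) on an axis that is linear to 1 TPM and logarithmic above. Krt13, Krt15 and Krt19 form a run of 3 abundant genes on chromosome 11, and the hair keratins before them lie below 1 TPM.

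Transcript tables added detail for 16 keratins with at least 100 counts in each library. Of these, 11 had 1 transcript in the authors' tables, which rest on annotation M4 and not on M21. In 3 of the 16 a second transcript took 5% or more of the gene's TPM in both libraries. The transcript Krt7-201 took 47.5% of Krt7 in replicate 1 and 45.5% in replicate 2, and Krt7-204, of 642 bases, took 43.5% and 43.7%. Krt19-201, the protein-coding transcript, took 58.4% of Krt19 in replicate 1 and 66.4% in replicate 2, and Krt19-203, annotated as a processed transcript of 823 bases, took 41.6% and 33.6%. Krt14-201, protein-coding, took 64.6% of Krt14 in replicate 1 and 47.7% in replicate 2, with 676.65 and 334.25 counts. Krt14-202, a processed transcript, took 35.4% and 52.3%, with 237.45 and 234.25 counts. By counts Krt14-201 led in both libraries, whereas by TPM, which weights the shorter Krt14-202 of 1122 bases more, it led in replicate 1 only. Short transcripts raise a gene's TPM because TPM is per length, and reads that fit several transcripts were divided by the authors' quantification.

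**Figure D4:**
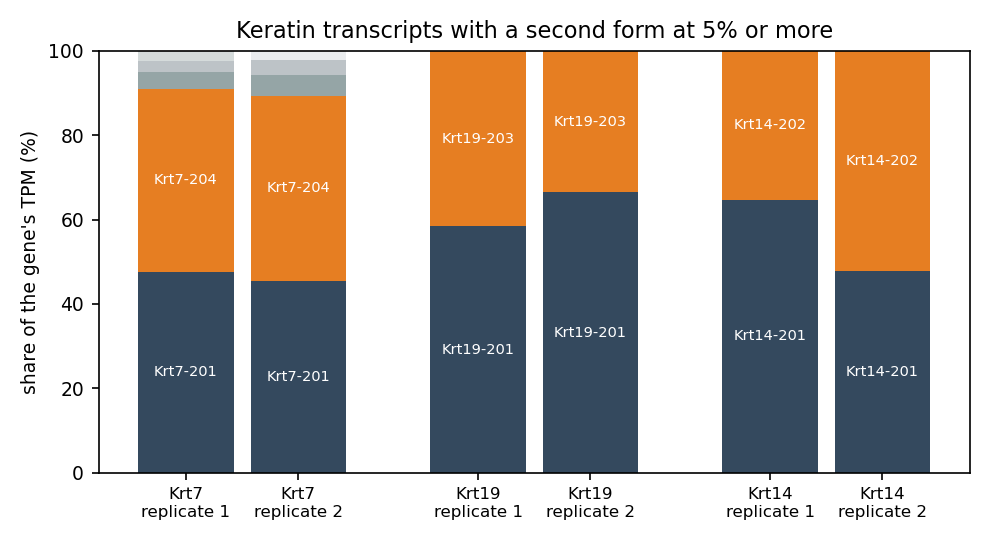
Share of gene TPM, in percent, taken by the transcripts of Krt7, Krt14 and Krt19, with replicate 1 left of replicate 2. The protein-coding Krt14-201 takes 64.6% in replicate 1 and 47.7% in replicate 2.

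Both libraries are pools of the same tissue and age, and their comparison shows how far keratin levels differed between these 2 pools. It does not give the spread to be found among such pools. Expected counts were rounded and compared by a two-sided exact binomial test over all 20918 genes with at least 10 counts in sum, with Benjamini-Hochberg adjustment, and a gene was called at an adjusted p below 0.05 and a log2 ratio of at least 1 in either direction. The test compares the reads of these 2 libraries and no condition, its intervals cover counting error only, and reads from PCR copies are not independent molecules. Of 31 keratins tested, 7 were called higher in replicate 1, where 5.91% of all tested genes were called in that direction. In the direction of replicate 2, 0 keratins and 0.808% of all tested genes were called, and Krt18 lay below the fold limit. The called keratins were 5 of 16 tested stratified ones, Krt4, Krt13, Krt6a, Krt78 and Krt6b, and 2 of 8 tested hair keratins, Krt34 and Krt35. Of the 6 simple keratins 0 were called, which a list of that length can hold at a share of 5.91%.

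Krt4 showed the largest log2 ratio of the 8 keratins above 100 TPM in both libraries, and Krt13 the next. The log2 ratio of Krt4 was 1.31 (95% interval 1.29 to 1.33) on 48234 counts in replicate 1 and 20046 in replicate 2, and that of Krt13 was 1.02 (0.99 to 1.05) on 30272 and 15387 counts. Krt6a stood at 1.03 (0.98 to 1.08). Krt78 had a log2 ratio of 1.32 with an adjusted p of 1.95e-28, and Krt6b one of 1.34 with an adjusted p of 2.15e-11 in the exact binomial test. The lower bounds of Krt13, Krt6a and Krt6b reach below the fold limit of 1. Krt34 had a log2 ratio of 1.15 (0.28 to 2.12; adjusted p 0.0257, exact binomial test), and Krt35 one of 3.20 (1.01 to 9.15; adjusted p 0.004, exact binomial test) that rests on 1 count in replicate 2.

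A second test allowed for more than counting error and made fewer calls. With a common dispersion over both libraries, a biological coefficient of variation of 19.7%, the edgeR exact test called 1 keratin, Krt4 (adjusted p 0.0449, Benjamini-Hochberg), where it called 3.07% of all tested genes higher in replicate 1. The adjusted p of that test was 0.0608 for Krt78, 0.087 for Krt6b, 0.125 for Krt35, 0.247 for Krt6a, 0.259 for Krt13 and 0.923 for Krt34. Each arm of that test is 1 library, and the dispersion came from the same difference that was tested, so neither a call nor a lost call measures the spread between replicates.

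Nearly all stratified keratins were higher in replicate 1, beyond the shift of all genes, while simple keratins were split in direction. Of 14 stratified keratins with at least 20 counts in sum, 13 were higher in replicate 1, with a median log2 ratio of 0.73. Of the 6 simple keratins 4 were higher in replicate 1, with a median of 0.08, and of 6 hair keratins 3 were, with a median of -0.01. Over all 19303 genes with as many counts 49.7% were higher in replicate 1, with a median near 0 and an SD of 0.66. Within the stratified group the basal Krt5 and Krt14 had log2 ratios of 0.73 each and Krt15 one of 0.55, below those of Krt4 and Krt13. Krt1, Krt10 and Krt17 had ratios of 0.38, 0.26 and 0.26, and Krt16, at -0.22 (-1.05 to 0.59) on 25.34 and 29.5 counts, was the exception in direction.

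**Figure D5:**
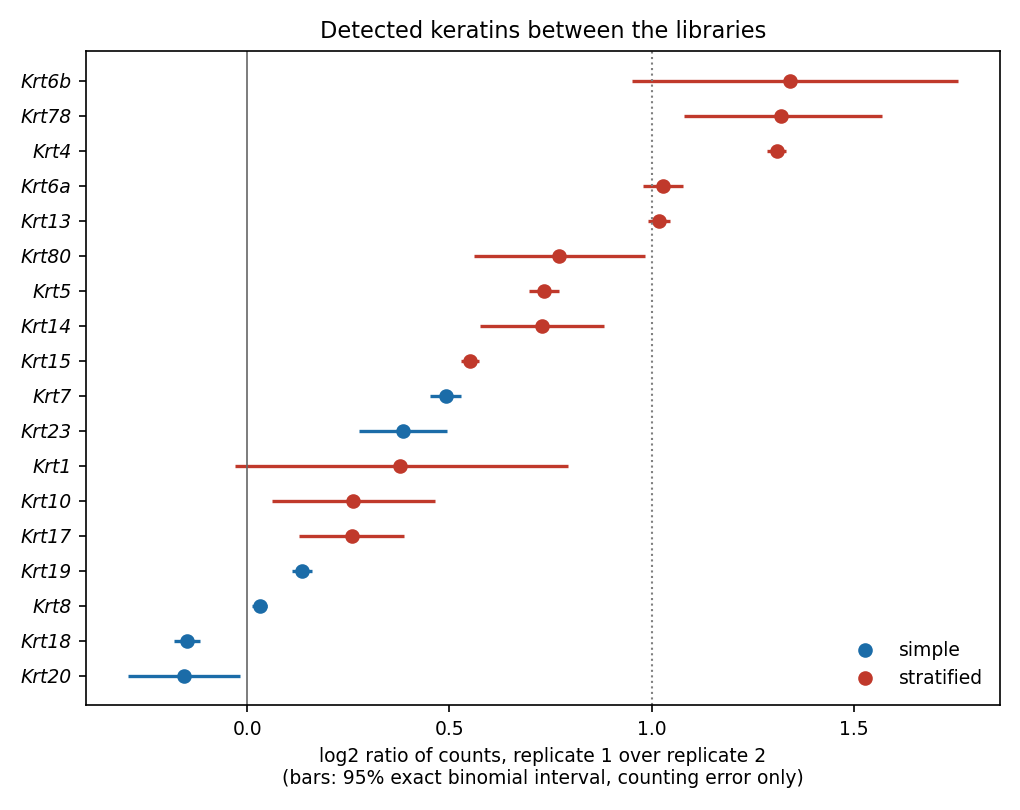
Log2 ratio of replicate 1 over replicate 2 for the 18 detected keratins, ordered by ratio and coloured as simple or stratified, with bars for the 95% exact binomial interval. Krt4 lies at 1.31 and Krt13 at 1.02, above the simple keratins, of which Krt8 lies at 0.03 and Krt18 at -0.15.

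The stratified to simple ratio therefore stood on opposite sides of 1. Stratified keratins were 1.25 times the simple ones in replicate 1 and 0.715 times in replicate 2, a log2 mean of -0.08 ± 0.57 (SD, n = 2). Simple keratins took 44.4% of keratin TPM in replicate 1 and 58.3% in replicate 2, and stratified ones took 55.5% and 41.6%. Which group was the more abundant in this tissue is not settled by 2 pools. Of 12 squamous epithelium markers, 6 were also called higher in replicate 1 by the exact binomial test (5.91% of all tested genes), namely Cnfn, Ly6d, Krtdap, Sprr3, Crct1 and Calml3, with a median log2 ratio of 1.01 for the list. The edgeR exact test called 5 of them (3.07% of all tested genes), all but Ly6d. Of 8 liver markers, 6 were called higher in replicate 1 by either test, with a median of 1.56. Of 10 glandular markers 1, Gkn1 at 1.94 and 0.58 TPM, was called, with a median of -0.02. How far the number of squamous cells in each pool, or tissue taken along with the stomach, entered the keratin difference was not tested.

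Markers of other epithelia were read beside the keratins. The exact binomial test called 6.72% of all tested genes in either direction, a share at which lists as short as those below can hold 0 calls or 1. The mesothelium list, which includes Krt8, had 7 of 7 matched members detected and 0 called by either test, with a median log2 ratio of 0.17, and Upk3b had 45.6 TPM in replicate 1 and 37.24 TPM in replicate 2. The exocrine pancreas list had 0 of 8 called by either test and a median of -0.46, and 1 of 8 members was higher in replicate 1. The intestine list had 6 of 7 detected and a median of -0.19, with 1 member called, Sis, at 0.23 and 0.04 TPM. Of the epidermis and hair list 3 of 9 matched members were detected, at 2.89 and 2.13 TPM for Lor, 1.59 and 1.25 TPM for Krt1 and 1.42 and 1.34 TPM for Msx2, while Krt2, Krt71 and Flg had 0 counts, and Hrnr was called at 0.13 and 0.01 TPM. The list of a periderm-like outer layer, of which 3 of 5 members are keratins, had 5 of 5 detected, 1 called (Krt6a) and a median of 0.56. The skin keratins were thus low together with the other skin genes of the list.

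Genes that work with keratins were detected throughout. Of 11 listed linkers, the plakins and desmosomal plaque proteins that tie keratin filaments to junctions, 10 were matched and all 10 were detected, with 0 called by either test (6.72% of all tested genes by the exact binomial test in either direction), and 9 of 10 were higher in replicate 1 (median log2 ratio 0.29). The largest ratios were those of Ppl and Evpl, plakins of stratified epithelia, at 0.95 and 0.83, and of Pkp1, a plakophilin of stratified epithelia, at 0.64, all below the fold limit and named after their values were seen. Jup, the plakoglobin of desmosomes and adherens junctions, had 141.29 TPM in replicate 1 and 132 TPM in replicate 2. Pkp3, a plakophilin, had 46.36 and 40.44 TPM. All 17 epithelial transcription factors were detected, with 0 called by either test and a median of 0.26. Pitx1 had 137.24 and 112.31 TPM, Elf3, a factor of simple and stratified epithelia, had 109.6 and 106.89 TPM, and Trp63, the p63 factor of basal squamous cells, had 27.66 TPM in replicate 1 and 18.88 TPM in replicate 2.

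Other intermediate filament genes were compared in the same way. Of 16 genes 13 were detected and 0 were called by either test, with a median log2 ratio of 0.07 over members of both directions, from -0.50 for Nefh to 0.79 for Gfap. The exact binomial test called 6.72% of all tested genes in either direction, a share at which a list of this length can hold 0 calls. Vim, the vimentin of mesenchymal cells, had 388.67 TPM in replicate 1 and 398.48 TPM in replicate 2, below Krt8 in both. Lmna, a nuclear lamin, had 178.57 and 150.37 TPM. The 16 genes summed to 872.23 TPM in replicate 1 and 860.05 TPM in replicate 2, against 4873.73 and 3576.9 TPM for the keratins.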

How the data were processed

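Total RNA-seq of 2 pools of embryonic stomach was used. Per the text deposited beside the tables, the authors aligned to the transcriptome of mm10 with annotation M4, and the aligner, quantification program and strand setting are not given in the sources used here. Without the strand setting, reads of a keratin cannot be separated from those of an antisense gene. Per the file headers, the authors' tables hold expected counts per gene and per transcript, beside TPM and FPKM scaled by effective length, and the deposited transcript tables give each transcript's share of its gene in percent. ERCC spike-ins took 1.88% of the counts in replicate 1 and 3.00% in replicate 2 and entered no test or library size other than the spike-in alternative. The deposited TPM values were used as given and include the spike-ins, which took 4.01% of TPM in replicate 1 and 6.51% in replicate 2. TPM levels and sums of the libraries are therefore on slightly different scales.

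Genes were matched to GENCODE M21 by identifier without version, and 42462 of 43346 (98.0%) matched. Expected counts were rounded for tests and scaled with TMM (edgeR 4.0.16, R 4.3.3). Ratios used a prior count of 0.5, and intervals were exact (Clopper-Pearson, scipy 1.17.1). CPM was computed from the deposited expected counts. The labels describe the replicates as biological. The p-values of the exact binomial test set the difference between these libraries against counting error only. They do not measure the spread between replicates, and neither do those of the edgeR exact test, whose dispersion came from the same difference.

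Named keratins were those at 1 TPM or more in both libraries, those called, and the member with most counts of each class without a detected member; of the lists of other intermediate filaments, linkers and regulators, the 2 highest and those called. Krt79, Krt16, Krt87 and the marker genes beyond that rule were named after their values were seen. The members and lists were chosen with earlier results of these data known, and the layer groups, the keratin-associated proteins and the ATAAAAG motif were added after values were seen. Alternatives covered other detection limits, FPKM, CPM, posterior means, library sizes (DESeq2 1.42.0 size factors, totals, spike-ins), count minimums, a prior count of 5, the edgeR exact test and transcript-level values.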

Additional observations from a re-analysis of the deposited data

How the results depend on the processing

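The log2 ratio of stratified to simple keratins, -0.08 in the main analysis, depended on the unit and on single genes. It was 0.148 with CPM, 0.152 with the transcript of most counts for each gene, 0.625 without Krt8 and -1.02 without Krt4 and Krt13, and from -0.48 to 0.320 with either replicate left out. Leaving out genes and choosing 1 transcript were alternatives chosen after seeing the data. The type II to type I ratio, -0.37, was 0.083 with CPM, which does not correct for length, and -0.24 with the transcript of most counts. Among simple keratins alone that ratio, -0.21, was 0.315 with CPM and 0.032 with the transcript of most counts, both added after seeing the data. Summed FPKM was 2924 for all keratins and 1468 for simple ones, and summed CPM of simple keratins was 2260. Spike-in library sizes gave 18 called keratins in place of 7, and the edgeR exact test gave 1. With spike-in sizes the median log2 ratio of all genes shifted to 0.68, and those of keratins were 1.17 for all, 0.763 for simple and 1.41 for stratified ones. That scaling turned Krt18 to 0.53 and Krt20 to 0.52, and 3432 genes were then called higher in replicate 1 and 56 in replicate 2 (98.4% higher), against 1237 and 169 (88.0%) with TMM. With TPM and a pseudocount, Krt8 stood at -0.0052. Of 198 alternatives for single keratins 178 kept direction and side of the threshold, 10 lost the call, 7 gained it and 3 turned direction. Not all of these could differ from the main analysis. Transcript counts summed per gene give back the counts of the gene, and DESeq2 size factors moved Krt4 only from 1.309 to 1.306. The count of 178 is therefore no measure of robustness. Leaving out a replicate cannot be applied to the ratio between the libraries. No paired analysis was possible because the series holds 1 group. Depth limits the hair keratins, most of which had under 20 counts in sum.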
